A study of Mus musculus with 8 samples.

Results

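Matricellular proteins are secreted into the extracellular matrix and act on cells from there, and small leucine-rich proteoglycans are matrix proteins whose core carries sugar chains. Values are described here for 10 such genes, Postn, Fbln2, Abi3bp, Bgn, Fn1, Tnc, Sparc, Thbs1, Thbs2 and Lum, out of 18193 genes measured with a probe set of their own. They were taken by symbol, which gave 21 probe sets, and 1 further probe set that names Thbs1 together with another gene was left out. The 10 genes were chosen from results of these same arrays, including their differences between the groups, so those differences are given as a description with a standard error (SE) and no p-value. Where the 10 are counted as called in the fit over all genes, the count stands beside that of all genes and nothing is read from it. The samples were 4 lines grown out of tumours that JoMa1 cells transfected with MYCN had formed in immunocompromised mice (tumour lines 3 to 6), 1 library labelled GFP-transfected, which is said to be JoMa1 carrying GFP as a control, and parental JoMa1 on 3 arrays. JoMa1 is a mouse neural crest precursor line, kept growing by a tamoxifen-activated MYC fusion that all groups inherit. Whether each culture received the drug is not stated. The tumours are labelled independent, but they may share 1 transfected stock, and nothing states that the parental arrays were separate cultures.

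As background, matricellular proteins such as the thrombospondins, tenascins, periostin and SPARC add little to the mechanical strength of tissue. They bind collagens, growth factors and cell surface receptors, and so change adhesion, migration and signalling. Fibronectin is the adhesive glycoprotein on which many of them assemble, and biglycan and lumican bind collagen fibrils. Neural crest cells migrate through a matrix rich in fibronectin and tenascin, and mesenchymal derivatives of the crest make much of this set.

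Levels are given in log2 units after RMA, so that 1 unit is a 2-fold difference, and each gene is read from whichever of its probe sets was brightest on average over the 8 arrays. Array medians ran from 6.26 to 6.30. Bacterial trpnX controls, which have no target in mouse RNA, read 3.56 to 4.47, and values in that range carry little signal. The brightest probe set of the transfected gene, Mycn, read 14.17 ± 0.08 in the tumour lines (SD, n = 4), 11.73 in the library labelled GFP-transfected and 7.42 ± 0.12 in the parental arrays (SD, n = 3). Another Mycn probe set went the other way, at 4.53 to 4.69 in tumour lines, 4.33 in that library and 8.01 to 8.23 in parental arrays. A further one lay between 5.64 and 6.23 on all arrays. Why the probe sets differ was not tested. By the brightest probe set, the library labelled GFP-transfected goes against its label. On the probe set that went the other way, it also stood with the tumour lines and away from the parental arrays. It is called by its label throughout. The neural crest label was borne out in part. Of the markers listed for it, Snai2 was bright on all arrays, at 11.81 to 12.33 in tumour lines, 10.73 in the library labelled GFP-transfected and 11.47 to 11.60 in parental arrays. The defining crest gene Foxd3 stood near background, at 4.62 to 4.80, 4.56 and 4.41 to 4.72 in the same groups. Sox10, another crest regulator, read 7.40 to 7.47 in tumour lines, 7.35 in the library labelled GFP-transfected and 7.19 to 7.41 in parental arrays. Tfap2b, a crest transcription factor, read 4.31 to 4.86 in tumour lines, 8.77 in the library labelled GFP-transfected and 9.69 to 9.99 in parental arrays, so the tumour lines had little of it. In the same order, Zic1 read 3.85 to 7.29, 9.67 and 9.40 to 9.50. Pax3 read 9.07 to 9.91, 9.35 and 10.50 to 10.65, and Ngfr 5.08 to 5.47, 5.56 and 5.23 to 5.53. Counts over all 12 listed markers are given further on.

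The set split in the tumour lines. In RNA from whole cultures, fewer cells of a type and less RNA per cell cannot be told apart. Bgn, Abi3bp and Fbln2 were between 8.10-fold and 19.8-fold higher than in parental cells, Fn1 and Sparc were slightly higher, Tnc and Thbs2 were lower, and Postn, Thbs1 and Lum had groups that overlapped. In the library labelled GFP-transfected, all 10 genes lay below the parental mean, and 9 had their lowest value of all 8 arrays there. Over all genes, 21.4% had their lowest value in that library. For 7 of the 10 genes the tumour lines and the parental arrays did not overlap, 5 of them higher and 2 lower in tumour lines, where 44.4% of all genes did not overlap. In limma, 5 of the 10 were called higher in tumour lines than in parental cells at an adjusted p under 0.05, against 16.6% of all genes, and 2 were called lower, against 19.4%. Nothing is read from these counts, because the genes were chosen with this comparison known.

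**Figure D1:**
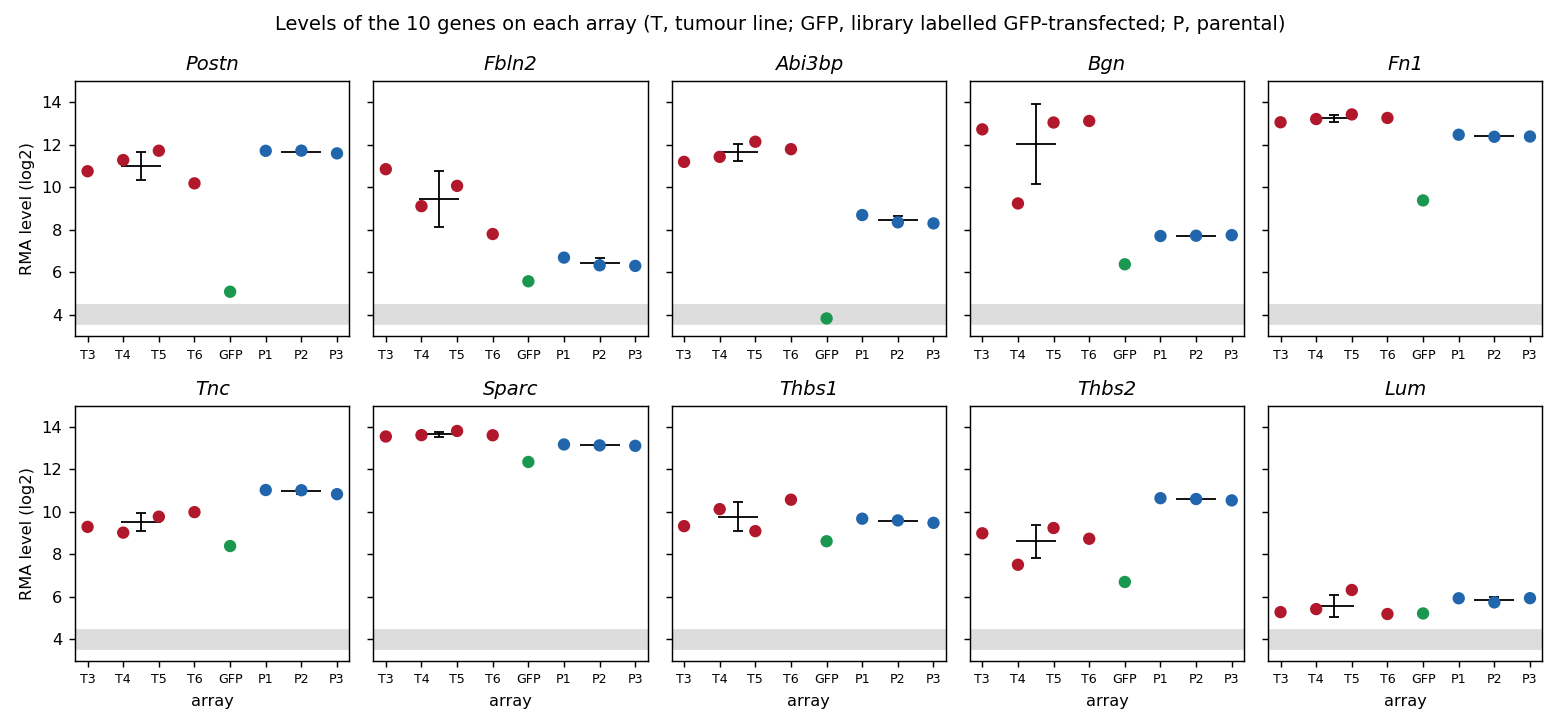
Level of each of the 10 genes on each array, as RMA values (log2, vertical axis), with tumour lines 3 to 6 in red, the library labelled GFP-transfected in green and parental arrays 1 to 3 in blue; black bars are the group mean ± SD and the grey band is the range of the trpnX controls. The parental points lie close together, the tumour lines scatter by 3.88 units for Bgn and by 0.26 for Sparc, and the green point is lowest in every panel except that of Lum.

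Promoter windows of RefSeq (assembly GRCm38.p6), which run from 250 bases before to 50 bases after an annotated start, were found for 6 of the 10 genes, in 8 windows. Those printed belong to the gene with the largest difference in tumour lines (Bgn), a gene bright in parental cells and low in the library labelled GFP-transfected (Postn) and a gene lower in both (Thbs2). Capitals mark TATAAA on either strand, the letters of the TATA element that positions transcription starts. The window of Bgn lies at chrX:73483351-73483650 on the plus strand and that of Postn at chr3:54360857-54361156 on the plus strand. The window of Thbs2 lies at chr17:14694213-14694512 on the minus strand.
Bgn: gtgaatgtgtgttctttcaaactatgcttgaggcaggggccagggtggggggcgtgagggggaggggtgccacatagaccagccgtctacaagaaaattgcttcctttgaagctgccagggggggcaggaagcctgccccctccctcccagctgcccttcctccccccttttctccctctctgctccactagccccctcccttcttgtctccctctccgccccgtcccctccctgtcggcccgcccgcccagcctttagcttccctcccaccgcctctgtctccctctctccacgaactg
Postn: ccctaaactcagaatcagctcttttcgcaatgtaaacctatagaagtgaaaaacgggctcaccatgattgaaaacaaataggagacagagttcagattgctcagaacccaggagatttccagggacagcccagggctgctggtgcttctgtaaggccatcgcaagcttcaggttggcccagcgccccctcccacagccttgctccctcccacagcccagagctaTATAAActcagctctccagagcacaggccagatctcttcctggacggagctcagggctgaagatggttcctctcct
Thbs2: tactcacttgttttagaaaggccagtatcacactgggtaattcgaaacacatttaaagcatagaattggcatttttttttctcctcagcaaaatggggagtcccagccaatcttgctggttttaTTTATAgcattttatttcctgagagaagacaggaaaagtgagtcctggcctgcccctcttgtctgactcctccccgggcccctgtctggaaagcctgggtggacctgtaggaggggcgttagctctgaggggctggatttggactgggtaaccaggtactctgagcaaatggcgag

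TATAAA began 26 bases before the start in this window of Postn, and 126 bases before the start in that of Thbs2, there on the other strand. It was present in 4 of the 8 windows, from 3 of the 6 genes (Postn, Tnc and Thbs2), and in 13.6% of all 32851 windows. Both Tnc windows overlap and hold the same TATAAA, and the other Postn window holds none. The windows of Bgn, Fbln2 and Sparc, the matched genes that were higher in tumour lines, did not hold these letters. The letters CACGTG, bound by MYC family proteins with their partner MAX, were in 0 of the 8 windows and in 7.15% of all windows. TGANTCA, the AP-1 element, was in 0 of 8 windows and in 7.81% of all, and GGAATG, the TEAD element, in 0 of 8 and in 14.7% of all, each searched on both strands. A match or its absence in these windows is a description of letters only.

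Among the proteoglycan core genes, Bgn encodes biglycan, a collagen-binding protein that carries chondroitin or dermatan sulfate chains. It read 12.73, 9.24, 13.05 and 13.12 in tumour lines 3, 4, 5 and 6, against 7.71, 7.72 and 7.75 in the parental arrays. Every tumour line lay above every parental array, but line 4 stood apart from the other three. The mean difference was 4.31 (SE 0.86, 19.8-fold), and without tumour line 4 it was 5.24. The library labelled GFP-transfected read 6.38, below the parental arrays by 1.35 (SE 1.30). That SE draws on the spread among the tumour lines. Both other Bgn probe sets showed the same order of lines, with line 4 at 8.48 and 8.11 and the remaining lines between 11.31 and 12.79.

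Lum encodes lumican, a related proteoglycan with keratan sulfate chains, and was dim throughout. It read 5.29, 5.43, 6.33 and 5.20 in tumour lines 3 to 6, 5.22 in the library labelled GFP-transfected, and 5.94, 5.74 and 5.94 in the parental arrays. Line 5 lay above all parental arrays and the other lines below them. The mean difference between tumour lines and parental cells was -0.31 (SE 0.25). Without line 5 it was -0.57.

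Fn1 encodes fibronectin, which is assembled into fibrils by integrins. Its level was 13.06, 13.21, 13.43 and 13.26 in tumour lines 3 to 6, against 12.47, 12.38 and 12.39 in the parental arrays, so the groups were apart by a small margin. The difference was 0.83 (SE 0.09, 1.77-fold), and 1.35 (SE 0.13) with the other Fn1 probe set. In the library labelled GFP-transfected Fn1 read 9.38, which was 3.03 below the parental mean (SE 0.14, 8.17-fold).

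Abi3bp encodes a secreted matrix protein with fibronectin-type domains. It read 11.20, 11.43, 12.14 and 11.79 in tumour lines 3 to 6, against 8.69, 8.35 and 8.30 in the parental arrays. All lines were higher, with a difference of 3.19 (SE 0.21, 9.15-fold). In the library labelled GFP-transfected the level was 3.83, inside the range of the trpnX controls. It was 4.62 below the parental mean and 7.81 below the tumour lines, and with that level at background both gaps are lower bounds. The other probe set read 3.56 there and gave a difference of 3.38 between tumour lines and parental cells.

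Fbln2 encodes a fibulin of elastic fibres and basement membranes. The 4 tumour lines differed most among themselves after Bgn, at 10.85, 9.11, 10.07 and 7.80 in lines 3 to 6, with 5.58 in the library labelled GFP-transfected and 6.69, 6.33 and 6.30 in the parental arrays. Line 6 lay 1.36 above the parental mean and line 3 lay 4.41 above it. The mean difference was 3.02 (SE 0.61, 8.10-fold). A second Fbln2 probe set read 3.27 to 3.76 on all arrays, near the trpnX controls, and differed by 0.14 (SE 0.10), so the higher level was seen with 1 of the 2 probe sets.

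Sparc encodes a calcium- and collagen-binding protein and was bright on every array. Levels were 13.55, 13.61, 13.81 and 13.61 in tumour lines 3 to 6, 12.35 in the library labelled GFP-transfected, and 13.17, 13.13 and 13.11 in the parental arrays. The groups did not overlap, although the difference between tumour lines and parental cells was only 0.51 (SE 0.08, 1.42-fold). The library labelled GFP-transfected lay 0.79 below the parental mean (SE 0.12). A second probe set gave 0.58 and -0.96 for the same comparisons, and the remaining, dimmer one gave 0.09 and -0.08.

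Tnc encodes tenascin-C, a protein of migrating crest cells and wounds that counteracts adhesion to fibronectin. It read 9.30, 9.03, 9.78 and 9.99 in tumour lines 3 to 6, against 11.03, 11.02 and 10.84 in the parental arrays, and all lines were lower. The difference was -1.44 (SE 0.21, 2.71-fold). At 8.40, the library labelled GFP-transfected was lower still, by 2.57 (SE 0.32) below the parental mean. The second Tnc probe set gave -1.99 for tumour lines (SE 0.23) and -2.12 for that library, and on it both stood close to the trpnX controls.

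Thbs1 and Thbs2 encode thrombospondins, trimeric proteins that bind CD36 and CD47 and restrain blood vessel growth. Thbs2 read 8.99, 7.51, 9.24 and 8.74 in tumour lines 3 to 6, against 10.65, 10.61 and 10.54 in the parental arrays. All lines were lower, line 4 the lowest, and the difference was -1.98 (SE 0.36, 3.94-fold). The library labelled GFP-transfected read 6.70, lower by 3.90 than the parental mean (SE 0.54). On all 3 Thbs2 probe sets line 4 was the lowest line and the library labelled GFP-transfected lay below every line, with tumour-line differences of -1.80 to -2.27.

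Thbs1 did not follow Thbs2. It read 9.33, 10.13, 9.10 and 10.58 in tumour lines 3 to 6, with lines 4 and 6 above and lines 3 and 5 below the parental arrays, which read 9.68, 9.60 and 9.49. The difference was 0.19 (SE 0.32), and -0.07 without line 6. The library labelled GFP-transfected read 8.62, 0.97 below the parental mean (SE 0.49). The other Thbs1 probe set kept the order of the lines, but all 4 lay above the parental arrays on it, with a difference of 0.70 (SE 0.23). The 2 probe sets thus differ in whether the groups overlap.

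Postn encodes periostin, which links collagen, fibronectin and tenascin in the matrix and binds integrins. In the tumour lines it stayed near the parental level, at 10.76, 11.28, 11.72 and 10.19 in lines 3 to 6, against 11.72, 11.72 and 11.60 in the parental arrays. Line 5 lay within the parental range and the other lines below it, with a mean difference of -0.69 (SE 0.31). Without line 5 it was -0.94. The library labelled GFP-transfected read 5.09, which is 6.59 below the parental mean (SE 0.47, 96.6-fold) and 5.90 below the tumour lines (SE 0.46). Postn has a single probe set.

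**Figure D2:**
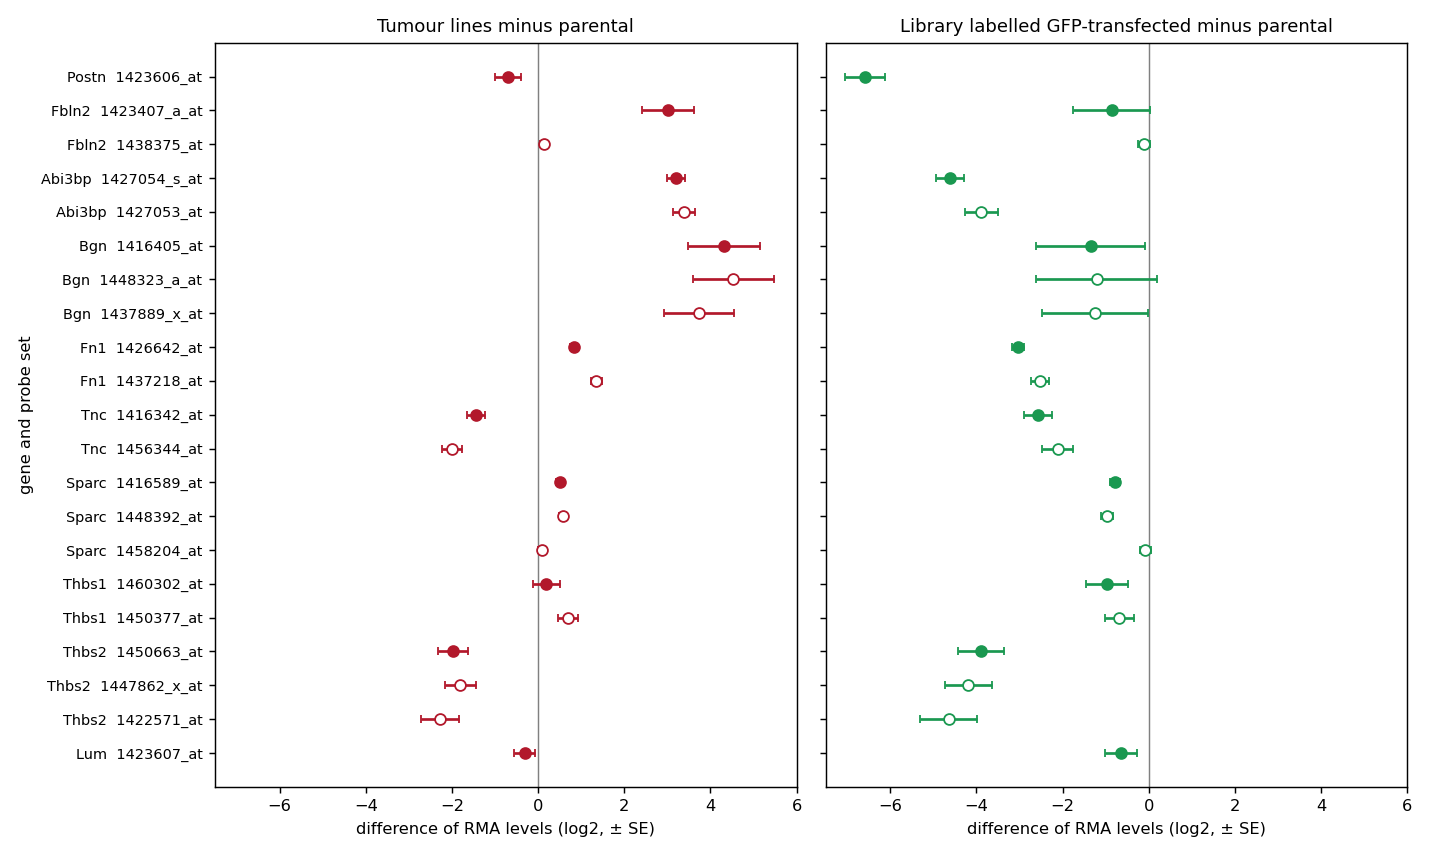
Difference from the parental mean (RMA levels, log2, horizontal axis) with its SE for each of the 21 probe sets, for the tumour lines on the left in red and for the library labelled GFP-transfected on the right in green; filled points are the probe sets used for the gene. Probe sets of 1 gene mostly lie together, except for the dim second Fbln2 probe set at 0.14 and the least bright Sparc probe set at 0.09. That Sparc probe set read 7.04 to 7.32, above the range of the trpnX controls. Whether this is specific Sparc signal was not tested. All 21 points on the right lie below 0.

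Against parental cells, 6 of the 10 genes were called lower and 0 higher in the library labelled GFP-transfected (Postn, Abi3bp, Thbs2, Fn1, Tnc and Sparc). Over all genes, 8.66% were called lower and 7.43% higher in limma, and again nothing is read from the members' count. The members' median difference was -1.96, beside -0.002 over all genes. Against that same library, the tumour lines were called higher for 8 genes and lower for 0, beside 14.0% and 16.4% of all genes. Thbs1 and Lum were not called. With a single array in that group, the fit assumes it varies like the others, and the 3 comparisons share arrays, so their values are set side by side and not counted as separate evidence. With this library added to the parental group, 4 of the 10 were called in tumour lines. Over all genes, 6547 were called there in the main fit and 5030 to 7153 across all alternatives. With that pooling, Fn1 (1.59), Tnc (-0.80) and Thbs2 (-1.003) were no longer called, and the difference of Postn turned to 0.96.

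The lines themselves ranked differently from gene to gene. Tumour line 5 was the highest of the 4 lines for 6 of the 10 genes, line 6 for 3 and line 3 for 1. The lowest value fell to line 3 for 3 genes, to line 4 for 3, to line 6 for 3 and to line 5 for 1. With 1 array for each line, these differences have no replicate check.

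For each gene, the genes with the most similar profile were found by the mean absolute difference (log2) between their departures from their own parental mean, over the 5 arrays that are not parental. Among 2661 genes with an SD of at least 0.5, the nearest to Sparc was Smpd1, at 0.06, and the nearest to Fn1 were Clmp (0.14) and Palld (0.16). Tnc was nearest to Notch3 (0.21) and to Mfap2 (0.30), Thbs2 to Egr3 (0.41), and Abi3bp to Ifit1 (0.48) and Xaf1 (0.55). The nearest to Postn were Ptn at 0.64 and Tgfbi at 0.74. Bgn had the largest distances, with Epgn and Kcne4 both at 0.80. The measure is not scaled to the size of the departures, so genes with small departures find near neighbours more easily. None of the 10 genes was among the nearest 2 of another. Sparc and Lum, with an SD under 0.5, were not among the genes compared and could not be.

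Related matrix genes were listed by textbook family, with earlier results of these data known, and read from the same fit. The genes named are mostly those with the largest called changes, so their p-values are not tests of genes fixed beforehand. Of 20 other matricellular genes measured, 9 rose and 1 fell in tumour lines against parental cells, beside 16.6% and 19.4% of all genes. Their median difference was 0.31, beside 0.013 over all genes. Ccn5, a growth-restraining member of the CCN family, read 12.58 ± 0.05 in tumour lines (SD, n = 4), against 7.09 ± 0.20 in parental cells (SD, n = 3). It rose by 5.49 (SE 0.10, limma adjusted p = 1.5e-08). Smoc2, a relative of Sparc, rose by 3.47 (SE 0.24, limma adjusted p = 1.33e-05). Spock3, a proteoglycan of the same family, rose by 3.43 (SE 0.81, limma adjusted p = 0.0103). Lines 3 and 5 read 8.70 and 8.87, and lines 4 and 6 read 5.72 and 5.81. The parental arrays read 3.72 to 4.08, inside the range of the trpnX controls, so the rise of Spock3 is a lower bound. Tgfbi, the closest relative of Postn in sequence and function, fell by 0.62 (SE 0.17, limma adjusted p = 0.0232). Against parental cells, 1 of the 20 rose and 6 fell in the library labelled GFP-transfected, beside 7.43% and 8.66% of all genes. Tgfbi read 7.55 there, against 12.12 to 12.19 in the parental arrays.

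Other proteoglycan genes went both ways in the tumour lines, against a background of 16.6% higher and 19.4% lower calls over all genes. Of 13 other small leucine-rich proteoglycan genes, 3 rose and 0 fell in tumour lines, with a median of 0.11. Fmod, for the collagen-binding fibromodulin, rose by 3.003 (SE 0.20, limma adjusted p = 1.04e-05), Aspn by 1.98 (SE 0.39, limma adjusted p = 0.00403) and Omd by 0.89 (SE 0.26, limma adjusted p = 0.0285). Of 13 genes for large and basement membrane proteoglycans and link proteins, 2 rose and 2 fell, with a median of 0.11. Prg4, for the joint lubricant lubricin, rose by 3.29 (SE 0.55, limma adjusted p = 0.00174) and Acan, for the cartilage proteoglycan aggrecan, by 1.37 (SE 0.34, limma adjusted p = 0.0132). Agrn, for the basement membrane proteoglycan agrin, fell by 0.94 (SE 0.21, limma adjusted p = 0.00708). Among 17 genes that build the sugar chains of proteoglycans or make hyaluronan, 2 rose and 4 fell, with a median of -0.02. The sulfotransferase gene Chst14 (-0.87, SE 0.07, limma adjusted p = 3.47e-05) and the chondroitin synthase gene Chsy1 (-0.75, SE 0.07, limma adjusted p = 7.21e-05) were lower. The hyaluronan synthase gene Has1 was higher by 0.68 (SE 0.21, limma adjusted p = 0.0372). Against parental cells, the library labelled GFP-transfected had 0 higher and 3, 1 and 5 lower genes in these 3 lists. Over all genes, 7.43% were higher and 8.66% lower in that comparison.

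Elastic fibre genes went both ways, beside 16.6% higher and 19.4% lower calls over all genes in tumour lines. Of 16 other fibulin and elastic fibre genes measured, 4 rose and 7 fell in tumour lines, with a median of -0.26. Emilin2 rose by 3.78 (SE 0.22, limma adjusted p = 5.81e-06) and Fbln7 by 3.34 (SE 0.19, limma adjusted p = 5.38e-06). Hmcn1, a giant relative of the fibulins, fell by 3.40 (SE 0.25, limma adjusted p = 2.12e-05). It read 3.98 to 5.01 in tumour lines, all but line 5 inside the range of the trpnX controls, so its fall is a lower bound. Of the 16, 11 fell and 1 rose in the library labelled GFP-transfected, with a median of -1.45. In that library, 8.66% of all genes were called lower and 7.43% higher. Of 17 receptor genes for these proteins, 4 rose and 3 fell in tumour lines, with a median of 0.15. Of the 4 syndecan genes, which encode cell surface proteoglycans, Sdc2 rose by 0.99 (SE 0.08, limma adjusted p = 3.98e-05) and Sdc3 by 0.98 (SE 0.21, limma adjusted p = 0.0062). Sdc4 rose by 0.61 (SE 0.08, limma adjusted p = 0.000447) and Sdc1 fell by 0.70 (SE 0.13, limma adjusted p = 0.00384). Of the receptor genes, 0 rose and 4 fell in the library labelled GFP-transfected.

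**Figure D3:**
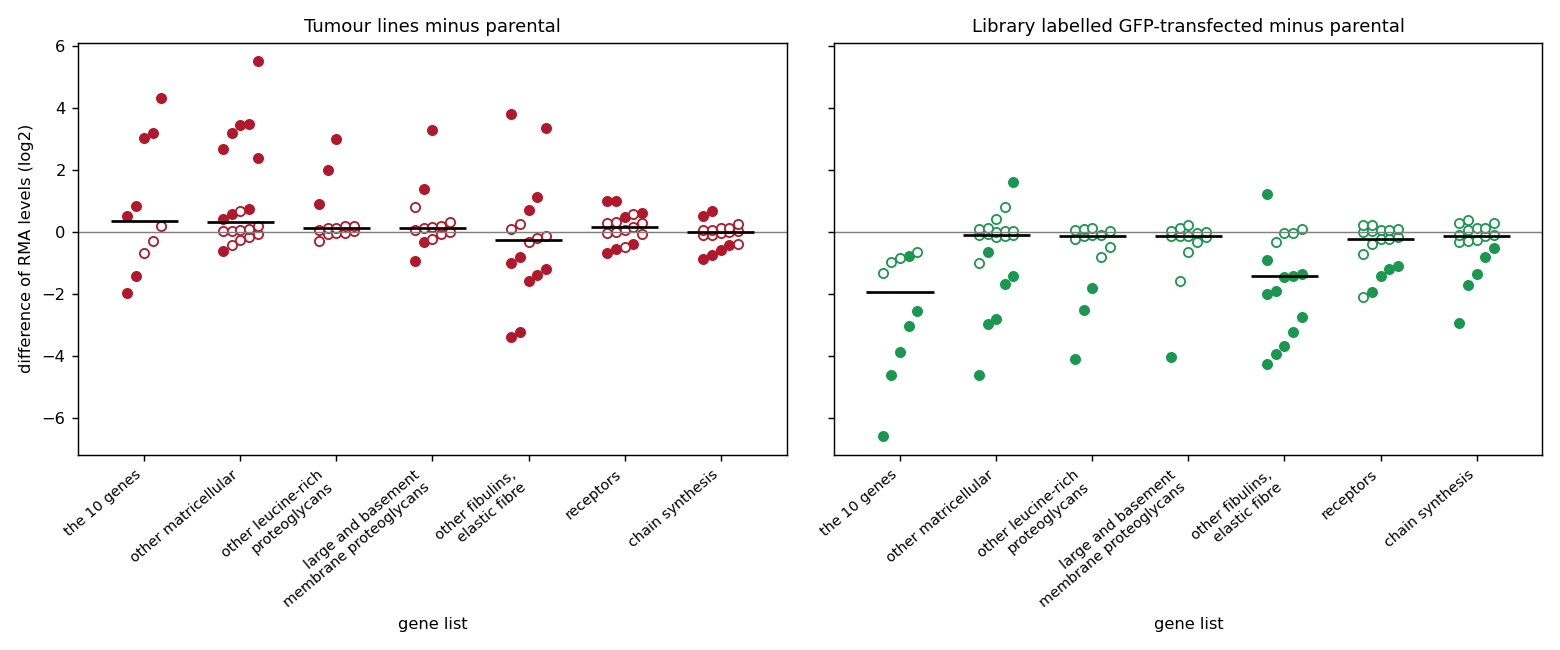
Difference from parental cells (RMA levels, log2, vertical axis) for the 10 genes and for 6 lists of related genes, in tumour lines (left, red) and in the library labelled GFP-transfected (right, green); each point is a gene, filled where called at an adjusted p under 0.05 in limma, and black bars are medians. On the left the medians lie between -0.26 and 0.35, and on the right those of the 10 genes (-1.96) and of the elastic fibre list (-1.45) lie lowest.

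Markers of other cell types that a tumour from a mouse can hold were read beside these values. The background is again 16.6% higher and 19.4% lower calls over all genes in tumour lines. For the library labelled GFP-transfected it is 7.43% higher and 8.66% lower. The leukocyte gene Ptprc read 4.05 to 4.14 in tumour lines and 3.90 to 4.37 in parental arrays, and the endothelial gene Pecam1 read 4.31 to 4.54 and 4.42 to 4.77, all near the trpnX controls. Of 12 macrophage and leukocyte markers 3 rose and 0 fell in tumour lines, and their mean level was 5.81 to 5.89, against 5.49 to 5.64 in parental arrays. The 3 were Cd14, which rose by 1.83 (SE 0.15, limma adjusted p = 3.96e-05), Cd68 by 0.80 and Lyz2 by 0.49. In the library labelled GFP-transfected 1 of the 12 rose, Cd68 by 0.75, and 0 fell. Of 10 endothelial markers 0 were called in tumour lines in limma, also 0 at an unadjusted p under 0.05, and their mean level was 5.18 to 5.30, against 5.11 to 5.27 in parental arrays. Cdh5, one of these markers, rose by 1.96 in the library labelled GFP-transfected (SE 0.15, limma adjusted p = 9.12e-05). Of 11 fibroblast markers measured, 5 rose and 2 fell in tumour lines, where their mean level was 9.85 to 10.39, against 9.27 to 9.35 in parental arrays. The mean holds opposite changes: Fap, a fibroblast surface protease, fell by 5.31 (SE 0.11, limma adjusted p = 4.67e-08) and Col3a1 by 0.44. By contrast, Thy1 rose by 3.995 (SE 0.47, limma adjusted p = 0.000259) and Cd34 by 3.42. Fap read 4.43 to 4.73 in tumour lines, near the trpnX controls, so its fall is a lower bound. In the library labelled GFP-transfected 0 of the 11 rose and 7 fell, and their mean level was 7.50. Of 8 smooth muscle and pericyte markers, 3 rose and 0 fell in tumour lines, while 0 rose and 2 fell in the library labelled GFP-transfected. They averaged 8.64 to 9.19 in tumour lines, 6.12 in the library labelled GFP-transfected and 7.65 to 7.72 in parental arrays. These averages rest on a few genes. The median difference of the list was -0.07 in the library labelled GFP-transfected, with Acta2 at -6.06 and Tagln at -5.31. In tumour lines the median was 0.14, with Cnn1 at 5.04, Actg2 at 3.15 and Acta2 at 0.81. Of 12 neural crest markers, 2 rose and 4 fell in tumour lines, with a median difference of 0.05. The list averaged 7.57 to 7.97 in tumour lines, 8.19 in the library labelled GFP-transfected and 8.41 to 8.43 in parental arrays. The lower average in tumour lines rests mostly on Tfap2b (-5.20) and Zic1 (-4.48). The 10 genes averaged 9.999 to 10.87 in tumour lines, 7.15 in the library labelled GFP-transfected and 9.63 to 9.78 in parental arrays. The part of fibroblast or muscle-like cells in these differences was not tested.

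**Figure D4:**
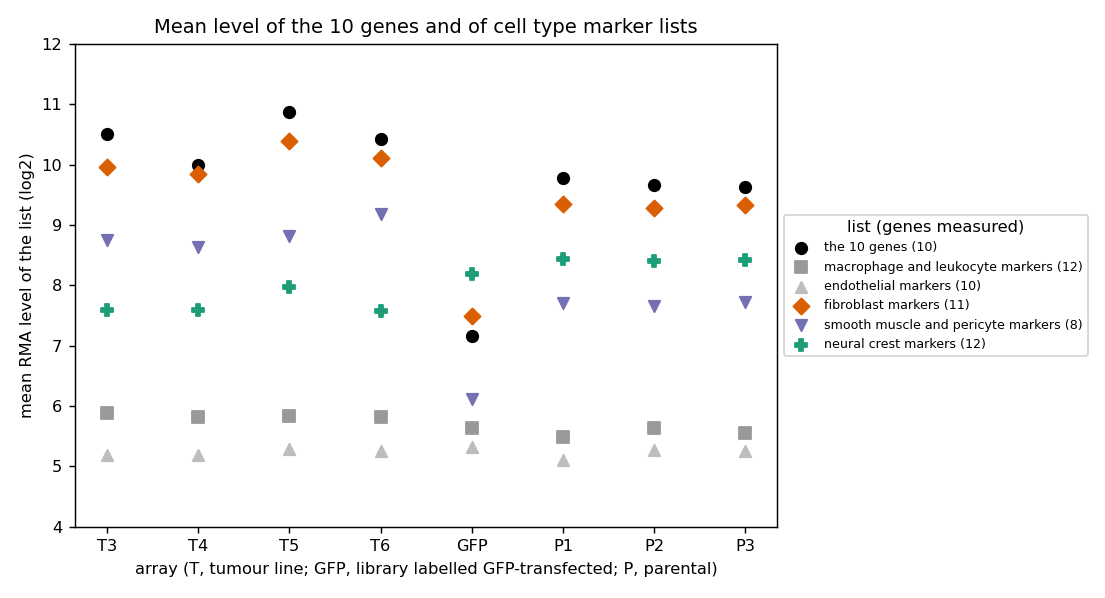
Mean RMA level (log2, vertical axis) of the 10 genes and of 5 lists of cell type markers on each array (horizontal axis), with 1 point per list and array. The 10 genes, the fibroblast markers (7.50) and the smooth muscle markers (6.12) are lowest in the library labelled GFP-transfected, while the macrophage and endothelial lists stay between 5.11 and 5.89 on all arrays. The low smooth muscle mean there rests mostly on Acta2 and Tagln.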

How the data were processed

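RNA from 8 samples was measured on 8 Affymetrix mouse arrays. The authors deposited the signal of each probe set on each array as log2, computed by RMA, per the submitters' processing notes, which also name Partek, both without versions. RMA subtracts background, brings arrays to a shared distribution and summarises probes, so it compresses dim signals and removes any change in total RNA. Of 45101 probe sets, 34945 carried 1 gene symbol in the platform annotation, and each of 18193 genes was represented by its brightest probe set on average. Symbols of all 10 genes matched RefSeq (GRCm38.p6). No label or file header states which build the authors used.

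Differences come from limma 3.58.1 (R 4.3.3; lmFit and eBayes, 1 coefficient per group over 8 arrays, 5 residual degrees of freedom, two-sided), with Benjamini-Hochberg adjustment over all genes and a call at an adjusted p under 0.05. Every probe set was also fitted singly, for the SE of the probe sets. The number of arrays limits the precision, and p-values measure only the spread between these arrays.

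The members, the related lists and the named genes were chosen with earlier results of these data known. All 10 members are named, and from each related list up to 3 called genes with the largest change in tumour lines plus up to 1 called against the majority. Marker genes given by name were picked from their lists after their values were seen, except that all neural crest markers are given. Some listed genes were not analysed here. Alternatives tried were averaging the probe sets of a gene, no _x_at or _s_at probe sets, genes above the median level, a trended and robust prior, array weights, repeated quantile normalization, centring on the median, pooling the library labelled GFP-transfected with parental arrays, and leaving out each array.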

Additional observations from a re-analysis of the deposited data

Results flagged for a closer look

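Over the 4 tumour lines, 40 values were checked for 1 line standing apart, by the gap between an end line and its nearest neighbour as a share of the whole range, against Dixon's critical value. Chance puts about 5% over it, and 7 of the 40 were. Tumour line 4 stood apart as the lowest on all 3 Bgn probe sets, with shares of 0.898 (9.24), 0.887 (8.48) and 0.853 (8.11). It also stood apart on 1 Thbs2 probe set (0.884), at 5.86 beside 7.69 to 7.93 in the remaining lines. Line 5 was apart as the highest on 1 Sparc probe set (0.908), at 13.01 beside 12.69 to 12.72. It was also apart for Hmcn1 (0.849), at 5.01 beside 3.98 to 4.13, which lie inside the range of the trpnX controls. Line 6 was apart as the highest for Sdc2 (0.862), at 10.36 beside 10.10 to 10.13. The Bgn probe sets measure 1 gene on the same arrays and are not separate events.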

How the results depend on the processing

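The called members kept their direction in all 3 comparisons under every alternative. Postn turned to 0.96 in tumour lines against parental cells when the library labelled GFP-transfected was pooled with the parental arrays. Members called then numbered 4 in place of 7, where all genes called ran from 5030 to 7153 across the alternatives. That pooling also left 0 other matricellular and 2 elastic fibre genes lower and 1 chain synthesis gene higher. Among genes above the median level, which are fewer by construction, 1 gene each of the small proteoglycan, large proteoglycan and chain synthesis lists was higher and 4 elastic fibre genes were lower. The mean of probe sets and array weights each gave 2 other matricellular genes lower, and array weights gave 7 receptor genes higher. For Thbs1, leaving out single arrays gave -0.070 (without line 6) to 0.42. Members called in tumour lines against parental cells ran from 7 to 9 over arrays left out, and all genes called from 5030 to 6649. Postn (-0.94) and Lum (-0.57) in tumour lines passed the threshold without line 5, as did Bgn (-1.35) in the library labelled GFP-transfected without line 4, and Postn with array weights (-0.78). Nothing is read from these calls, since the members were chosen on these arrays. Counts of list genes over arrays left out ran from 0 to 2 for other matricellular genes lower, 0 to 1 for small proteoglycan genes lower, 1 to 2 higher and 1 to 3 lower for large proteoglycan genes, 3 to 7 for receptor genes higher and 0 to 2 for chain synthesis genes higher. The causes were not tested. Against the library labelled GFP-transfected, Tnc (0.63) was not called with the mean of probe sets, nor Thbs2 (1.92) with a trended and robust prior. No paired analysis was possible because the tumour lines and the parental arrays share 1 number, and it only names arrays.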
